A study of Mus musculus with 6 samples.

Results

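The D cyclins and the cyclin-dependent kinase (CDK) inhibitors set the pace of the G1 phase of the cell cycle, and their 10 mouse genes are described here in dental epithelial organoids (DEOs). The genes were chosen by symbol: the D cyclins Ccnd1, Ccnd2 and Ccnd3, the Cip/Kip inhibitors Cdkn1a, Cdkn1b and Cdkn1c, and the INK4 inhibitors Cdkn2a, Cdkn2b, Cdkn2c and Cdkn2d. All 10 were found among the 47360 gene symbols of the deposited table. Each was above 1 FPKM, a fragment number scaled to transcript length and library size, in every library.

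The DEOs were grown in Matrigel for 14 days from adult dental epithelial stem cells taken from incisor apical buds of 9-week-old female wild-type C57BL/6J mice. Every medium held Wnt3a and R-spondin1 as conditioned media, EGF at 100 µg per ml, N-acetylcysteine, Y27632 and the BMP antagonist Noggin at 200 µg per ml, and this mixture alone is called +N. The +ND medium also held dibenzazepine (DBZ), which blocks the γ-secretase cleavage that activates Notch receptors, at 10 µM per the labels, while the methods text gives the dose in mmol per litre. The +NF medium held FGF10 at 100 µg per ml, and +NFD held both DBZ and FGF10. There was 1 library per medium, so no difference below has a replicate check, no p-value is given, and the intervals cover counting error only. The comparisons with +N all share the +N library. Of the 6 media in the labels, +NJ and +NFJ were not analysed here. The labels do not say how many animals or organoids each library pooled. Growth in Matrigel without added mesenchyme limits these cultures as a model of the incisor.

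D cyclins bind and activate Cdk4 and Cdk6, which phosphorylate the retinoblastoma protein and so free E2F transcription factors to switch on the genes of DNA replication. INK4 proteins bind Cdk4 and Cdk6 and keep D cyclins away from them, whereas Cip/Kip proteins act on cyclin-CDK complexes more widely and inhibit those of cyclins E and A. In the continuously growing mouse incisor, dividing transit-amplifying cells of the apical bud lie between slowly cycling stem cells and postmitotic ameloblasts.

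The libraries held about 22100000 to 29100000 fragments, as estimated from the smallest steps between low values, and the shallowest was +ND. The Notch target Nrarp was at 18.2 FPKM in +N and 2.8 in +ND, and 9.12 in +NF and 2.6 in +NFD, and the FGF feedback gene Dusp6 was at 64.1, 88.4, 226 and 176 in the same order. All 8 epithelial markers were detected at an FPKM of at least 1 in each library, with a summed level of 20766 FPKM in +N and 11958 in +ND, and 17029 in +NF and 14199 in +NFD. Most of each sum was Krt5 and Krt14. Compared with +N, 3 of the 8 markers were higher and 5 lower in +ND. In +NF and in +NFD, 4 were higher and 4 lower. The 10 fibroblast markers summed to 107 to 170 FPKM in +N, +ND and +NF and to 448 in +NFD, where all 10 reached an FPKM of 1. The 8 macrophage markers summed to 74.5 to 97.2 FPKM, and none of 6 endothelial markers reached 1. Fewer cells of a type and less RNA per cell cannot be told apart in these bulk libraries. BC037156 alone took 15.6% of all FPKM in +N and 5.17% in +ND, and 12% in +NF and 5.71% in +NFD, and how far this lowered other genes' values was not tested beyond the scaling alternatives.

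FPKM is scaled to transcript length, so levels of different genes can be set side by side. Cdkn1a, which encodes the inhibitor p21, was the most abundant inhibitor in all 4 media at 241 to 324 FPKM, above 97.3% to 97.8% of the genes detected at an FPKM of at least 1. Ccnd1 and Ccnd2 lay between 109 and 315 FPKM. Ccnd3, Cdkn2a, Cdkn2b and Cdkn2d formed a middle tier between 16.2 and 65 FPKM. Cdkn1b, which encodes p27, lay between 16.8 and 23.1 FPKM, and Cdkn2c, which encodes p18, between 8.51 and 14.5. Cdkn1c, which encodes p57, was the least abundant at 2.54 to 5.13 FPKM.

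**Figure D1:**
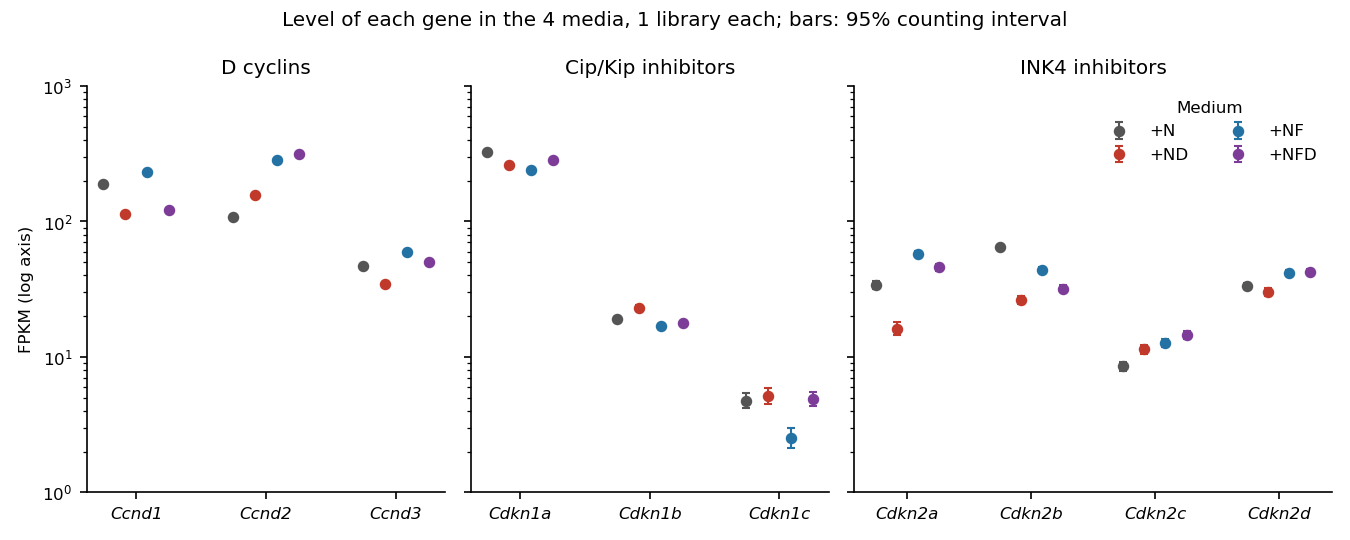
FPKM (log axis) of the 10 genes in the 4 media, by family, with 1 library a medium. Bars are 95% counting intervals from the estimated fragments behind each value and do not cover differences between cultures. Ccnd2 was highest in +NFD at 315 FPKM and lowest in +N at 109, while Cdkn1a stayed between 241 and 324.

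The spread over media differed between genes of the same family. Cdkn2a had the widest spread, with its highest library 3.58-fold above its lowest, followed by Ccnd2 at 2.9-fold, Cdkn2b at 2.46-fold, Ccnd1 at 2.06-fold and Cdkn1c at 2.02-fold. Ccnd3 and Cdkn2c spanned 1.74-fold and 1.7-fold. Cdkn2d, Cdkn1b and Cdkn1a spanned 1.4-fold, 1.37-fold and 1.35-fold. On the log2(FPKM + 1) scale the range over media was 1.78 for Cdkn2a and 0.43 for Cdkn1a, against a median range of 0.56 over the 13748 genes that reached 1 FPKM in some library. In that background 93.9% of genes had a smaller range than Cdkn2a and 34.9% a smaller range than Cdkn1a.

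The genes fell into groups by the medium in which they were highest and lowest. Ccnd1, Ccnd3 and Cdkn2a were highest in +NF and lowest in +ND. Ccnd2 and Cdkn2c were highest in +NFD and lowest in +N. Cdkn1b and Cdkn1c were highest in +ND and lowest in +NF, and Cdkn1a was also lowest in +NF, so that all 3 Cip/Kip genes had their lowest value in that medium. Cdkn2b was highest in +N and lowest in +ND, and Cdkn2d was highest in +NFD and lowest in +ND. In all, 5 of the 10 genes were lowest in +ND, 3 in +NF, 2 in +N and 0 in +NFD. The split of all genes by lowest medium is not given here, so these counts have no background. The +ND library also had the lowest summed FPKM, 672304, while the median log2 ratio over all genes was 0.10 in +ND against +N. Counting intervals of neighbours in the order overlapped for Cdkn1b (+N and +NFD, +NFD and +NF), Cdkn1c (+ND and +NFD, +NFD and +N), Cdkn2c (+NF and +ND) and Cdkn2d (+NFD and +NF, +N and +ND).

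Ccnd1 lies at chr7:144929931-144939925 on the minus strand of GRCm38 and encodes cyclin D1, the D cyclin that Wnt and growth factor signals are best known for inducing. It was at 188 FPKM in +N and 113 in +ND, and 233 in +NF and 121 in +NFD. The 2 media with DBZ held the 2 low values and the 2 media without it the 2 high ones, with 1 library each. The share of all genes whose values separate by a factor in this way is not given, here or for the genes below. The log2 ratio was -0.73 for +ND against +N and -0.94 for +NFD against +NF, both short of the 2-fold limit. For FGF10 the log2 ratio was 0.31 without DBZ (+NF against +N) and 0.09 with DBZ (+NFD against +ND), and the latter was -0.0014 once all ratios were centred on their median. Oraov1, which overlaps the 3′ end of Ccnd1 on the other strand over 1771 bases, was at 18.8, 10.1, 18 and 13.7 FPKM in +N, +ND, +NF and +NFD. Because no strand setting is stated, fragments of this stretch may be assigned to either gene.

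Ccnd2 lies at chr6:127125162-127152193 on the minus strand and encodes cyclin D2. It was at 109 FPKM in +N and 158 in +ND, and 283 in +NF and 315 in +NFD. Both libraries with FGF10 were above both libraries without it. The fold was 2.6 for +NF against +N (log2 ratio 1.37, counting interval of the ratio without a pseudocount 1.35 to 1.40) and 2.9 for +NFD against +N (log2 ratio 1.53). With DBZ already present, the fold for FGF10 was 2 and the log2 ratio 0.99, which lies just outside the 2-fold limit. For DBZ the log2 ratio was 0.53 without FGF10 and 0.16 with it. Ccnd2 was the opposite of Ccnd1 in the sign of the DBZ ratio in both pairs. The summed fibroblast markers were highest in +NFD and lowest in +NF, and Ccnd2 was high in both. The part of fibroblasts in the Ccnd2 values was not tested. The 2 genes that overlap Ccnd2 on the other strand, Gm43126 and 9330179D12Rik, reached at most 0.142 and 0.367 FPKM.

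Ccnd3 lies at chr17:47505051-47599691 on the plus strand and encodes cyclin D3. It was at 46.6 FPKM in +N and 34.3 in +ND, and 59.6 in +NF and 50.3 in +NFD. It shared the signs of Ccnd1, with log2 ratios for DBZ of -0.43 and -0.24 and for FGF10 of 0.35 and 0.54, all smaller than 2-fold. For +NFD against +N the log2 ratio of Ccnd3 was 0.11, and -0.07 after centring, while that of Ccnd1 was -0.64 before centring. Bysl overlaps its 3′ end on the other strand over 361 bases and was at 10 to 12.6 FPKM.

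**Figure D2:**
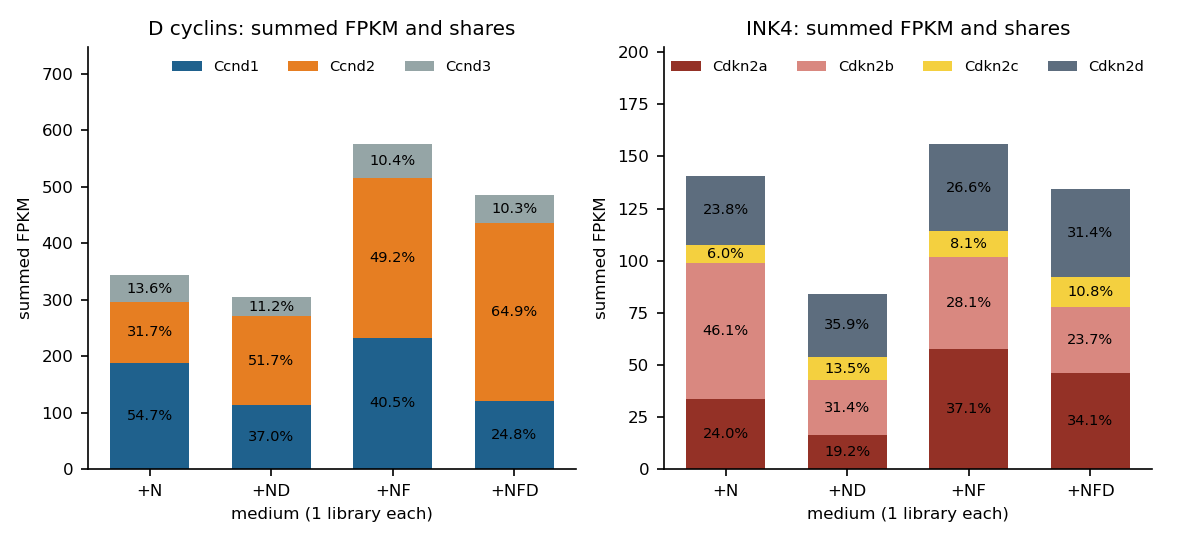
Summed FPKM of the D cyclins (left) and of the INK4 inhibitors (right) in each medium, 1 library each, stacked by gene with each gene's share of the family sum. Ccnd2 made up 31.7% of the D cyclin sum in +N and 64.9% in +NFD, and Cdkn2b made up 46.1% of the INK4 sum in +N and 23.7% in +NFD.

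The D cyclin pool differed between media in its makeup as well as in its total. The summed FPKM of the 3 genes was 343 in +N and 305 in +ND, and 575 in +NF and 486 in +NFD. Ccnd1 supplied 54.7% of this sum in +N and 37% in +ND, and 40.5% in +NF and 24.8% in +NFD, while Ccnd2 supplied 31.7%, 51.7%, 49.2% and 64.9%. Ccnd3 stayed between 10.3% and 13.6%. The ratio of Ccnd2 to Ccnd1 was 0.579 in +N, the only medium in which Ccnd1 was the more abundant, 1.4 in +ND, 1.21 in +NF and 2.62 in +NFD. Shares within a library do not depend on how the libraries were scaled to each other.

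Cdkn1a lies at chr17:29090979-29100722 on the plus strand, and its product p21 inhibits CDK2 complexes and is the best known cell cycle target of p53. It was at 324 FPKM in +N and 263 in +ND, and 241 in +NF and 282 in +NFD. No pair of libraries differed by more than 1.35-fold. Its log2 ratio for DBZ was -0.30 without FGF10 and 0.23 with it, and for FGF10 -0.43 without DBZ and 0.10 with it, so the sign differed between the pairs for both factors. Cdkn1a made up 90.3% to 93.2% of the summed Cip/Kip FPKM. The upstream sequence of its more distal RefSeq start is shown because it holds 2 matches to the p53 decamer, the repeated unit of a p53 response element, in capitals (chr17:29090729-29090975, GRCm38.p6, 247 bases, plus strand). The matches, searched on both strands, do not overlap each other, and 7.13% of 32851 RefSeq promoters hold at least 1 in the 250 bases before the start.
Cdkn1a distal start: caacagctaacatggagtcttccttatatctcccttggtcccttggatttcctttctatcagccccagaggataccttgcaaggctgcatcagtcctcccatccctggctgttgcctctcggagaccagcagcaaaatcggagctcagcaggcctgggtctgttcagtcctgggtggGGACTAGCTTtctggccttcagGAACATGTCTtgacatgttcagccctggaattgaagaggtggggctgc

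A match is a run of letters and not a measured binding site. Of 15 genes of p53 and its targets, 14 passed the filter for +ND against +N and 1 was at least 2-fold higher, Trp53inp1 at 19.4 FPKM in +N and 45.4 in +ND. Their median log2 ratio was 0.14, against 0.10 over all 13173 genes. None was 2-fold changed in +NF against +N (median 0.14, all genes 0.12), and 1 of 15 was in +NFD against +N, the nuclease gene Aen at 20.7 and 45.2 FPKM. Phlda3, the highest of the list by its mean and an inhibitor of Akt, was like Cdkn1a highest in +N, at 360 FPKM, with 243 in +ND, 286 in +NF and 276 in +NFD. Trp53inp1 and Aen were instead lowest in +N. Against +N, 7 genes of the list were higher and 7 lower in +ND, 10 and 4 in +NF, and 8 and 7 in +NFD. Mdm2, which encodes the ubiquitin ligase of p53, lay between 24.9 and 33.6 FPKM.

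Cdkn1b lies at chr6:134920401-134925513 on the plus strand, and its product p27 holds cyclin E and CDK2 complexes inactive in quiescent cells. It was at 19.1 FPKM in +N and 23.1 in +ND, and 16.8 in +NF and 17.8 in +NFD. The libraries with FGF10 were below those without it, with counting intervals of +N and +NFD that overlapped. The log2 ratio was -0.17 for +NF against +N and -0.35 for +NFD against +ND. Among 10 measured subunits of the ubiquitin ligases that act on p27 or the D cyclins, none was called at 2-fold in any of the 5 comparisons on the log2(FPKM + 1) scale. Skp2, which recognises p27, was at 2.31 FPKM in +N and 5.06 in +ND (log2 ratio 0.87), and 1 gene of the list was called higher in that comparison with a pseudocount of 0.1, with none or with TPM scaling. With TPM scaling 1 gene was also called in +NF and 1 in +NFD, each against +N. Cks1b, the cofactor that Skp2 needs to bind p27, was at 53.2 FPKM in +N and 95.9 in +ND, and 105 in +NF and 106 in +NFD. Skp1a, the adaptor of SCF ligases, had the highest mean of the list, at 132 to 168 FPKM. Levels of mRNA do not measure p27 protein, which is controlled in large part by its degradation.

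Cdkn1c lies at chr7:143458339-143461050 on the minus strand, in an imprinted cluster, and encodes p57. It was at 4.75 FPKM in +N (95% counting interval 4.17 to 5.37) and 5.13 in +ND (4.46 to 5.86), and 2.54 in +NF (2.14 to 3) and 4.9 in +NFD (4.34 to 5.52). The +NF library stood below the other 3, whose intervals overlapped. About 139 fragments lay behind the +NF value and 215 to 271 behind the others. The log2 ratio was -0.70 for +NF against +N and 0.74 for +NFD against +NF, and the fold without a pseudocount was 1.87 and 1.93. The summed fibroblast markers were also lowest in +NF and were 448 FPKM in +NFD, and their part in the Cdkn1c values was not tested. RP23-124B2.7, which lies inside Cdkn1c on the other strand over 892 bases, was at 5.37 FPKM in +N and 2.4 in +ND, and 1.75 in +NF and 4.04 in +NFD, so that fragments of this stretch may be assigned to either gene.

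Cdkn2a and Cdkn2b are neighbours on chromosome 4, both on the minus strand, at chr4:89274471-89294653 and chr4:89306289-89311032, with 11635 bases between them. Cdkn2a gives rise to 2 proteins from separate first exons: p16Ink4a, an inhibitor of CDK4 and CDK6, and p19Arf, which stabilises p53 by holding Mdm2. The FPKM of the gene adds both transcripts and does not separate them. Cdkn2b encodes p15, an inhibitor best known as a target of TGF-β. The sequences before the 3 starts of the locus are shown because these 2 genes gave 4 of the 6 calls of 2-fold below and share a locus but not an order over media. Capitals mark matches on either strand to the E2F motif TTTNNCG and to TGGGAA, the core bound by RBPJ, the DNA-binding partner of Notch. The sequences are from RefSeq (GRCm38.p6, minus strand), without bases that an annotated GENCODE transcript covers, at chr4:89294654-89294869 (216 bases) for the upstream start of Cdkn2a, chr4:89282193-89282442 (250 bases) for its downstream start and chr4:89311040-89311282 (243 bases) for Cdkn2b.
Cdkn2a upstream start: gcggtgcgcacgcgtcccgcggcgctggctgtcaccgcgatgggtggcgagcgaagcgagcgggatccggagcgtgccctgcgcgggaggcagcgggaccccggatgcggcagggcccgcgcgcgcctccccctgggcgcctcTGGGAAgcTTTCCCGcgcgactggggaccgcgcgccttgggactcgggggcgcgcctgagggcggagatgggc
Cdkn2a downstream start: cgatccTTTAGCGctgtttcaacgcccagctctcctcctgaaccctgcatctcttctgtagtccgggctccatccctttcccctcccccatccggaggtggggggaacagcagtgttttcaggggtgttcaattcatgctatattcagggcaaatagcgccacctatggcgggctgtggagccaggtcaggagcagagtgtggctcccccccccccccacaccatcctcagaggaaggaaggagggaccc
Cdkn2b start: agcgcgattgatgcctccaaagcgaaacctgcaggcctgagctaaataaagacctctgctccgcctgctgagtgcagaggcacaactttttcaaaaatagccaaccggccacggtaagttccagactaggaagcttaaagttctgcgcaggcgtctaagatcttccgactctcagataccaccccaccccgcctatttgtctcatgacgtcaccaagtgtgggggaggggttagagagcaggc

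The upstream start of Cdkn2a, from which the p19Arf transcript begins, held 1 match to TGGGAA and 1 to the E2F motif, which did not overlap. The downstream start, that of the p16Ink4a transcript, held 1 match to the E2F motif, and the Cdkn2b stretch held none to either. Of all 32851 promoters, 14.1% held the E2F motif and 21.6% held TGGGAA in their 250 bases before the start, so both are common. The SMAD motif CAGAC, held by 42.2% of promoters, was present once in the Cdkn2b stretch and in neither Cdkn2a stretch. The TCF/LEF motif (CTTTGAA or CTTTGAT, 7.48% of promoters) was in none of the 3. Promoters of 7 of the 10 genes were matched in the RefSeq table used here, and those of Ccnd1, Ccnd2 and Cdkn1c were not analysed here.

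Cdkn2a was at 33.8 FPKM in +N (counting interval 31.6 to 36.2) and 16.2 in +ND (14.4 to 18), and 57.8 in +NF (54.9 to 60.8) and 45.9 in +NFD (43.4 to 48.6). Both libraries with FGF10 were above both without it, and +ND was the lowest. The gene was 2.09-fold lower in +ND than in +N (log2 ratio -1.02) and 2.84-fold higher in +NFD than in +ND (log2 ratio 1.45, counting interval without a pseudocount 1.33 to 1.69). For FGF10 without DBZ the log2 ratio was 0.76, and for DBZ with FGF10 present it was -0.33. The call in +ND against +N lies near the limit, and its counting interval of -1.26 to -0.88 spans it. With FPKM rescaled to TPM this log2 ratio was -0.88, short of the limit.

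Cdkn2b was at 65 FPKM in +N and 26.4 in +ND, and 43.8 in +NF and 31.9 in +NFD. Unlike its neighbour it was highest in +N, and both libraries with DBZ were below both without it. It was 2.46-fold lower in +ND than in +N (log2 ratio -1.27, counting interval without a pseudocount -1.42 to -1.19) and 2.04-fold lower in +NFD than in +N (log2 ratio -1.003, just inside the limit, with a counting interval of -1.12 to -0.93). With FPKM rescaled to TPM the latter log2 ratio was -0.87 and the call was lost. With FGF10 present the DBZ log2 ratio was -0.45. The FGF10 log2 ratio was -0.56 without DBZ and 0.27 with it. The ratio of Cdkn2a to Cdkn2b was 0.521 in +N and 0.613 in +ND, and 1.32 in +NF and 1.44 in +NFD, so Cdkn2a exceeded Cdkn2b in both libraries with FGF10 and in neither without it. In +ND, where both genes were lowest, the epithelial marker sum, most of it Krt5 and Krt14, was also lowest, and its part in these values was not tested. Of the 8 markers, 5 were lower in +ND than in +N and 3 were higher, among them Trp63 at 88.5 and 166 FPKM.

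Cdkn2c, at chr4:109660876-109667189 on the minus strand, encodes p18 and lies on the same chromosome away from the pair. It was at 8.51 FPKM in +N and 11.4 in +ND, and 12.6 in +NF and 14.5 in +NFD. It was the only INK4 gene that was lowest in +N, and its log2 ratio was positive in each comparison, from 0.19 to 0.70, and never reached 2-fold. Cdkn2d, at chr9:21288463-21291209 on the minus strand, encodes p19Ink4d, a protein unrelated to p19Arf. It was at 33.5 FPKM in +N and 30.1 in +ND, and 41.5 in +NF and 42.2 in +NFD. The libraries with FGF10 were above those without it (log2 ratio 0.30 without DBZ and 0.47 with it), and the DBZ log2 ratios were -0.15 and 0.02.

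The INK4 total was 141 FPKM in +N and 84 in +ND, and 156 in +NF and 135 in +NFD. Cdkn2b made up 46.1% of it in +N and 31.4% in +ND, and 28.1% in +NF and 23.7% in +NFD. Cdkn2d was the largest part in +ND at 35.9%, and Cdkn2a was the largest in +NF at 37.1% and in +NFD at 34.1%. Set against the summed FPKM of their binding partners Cdk4 and Cdk6, the INK4 genes stood at 0.747 in +N and 0.355 in +ND, and 0.633 in +NF and 0.453 in +NFD. The D cyclins stood at 1.82, 1.29, 2.34 and 1.64 per unit of Cdk4 and Cdk6. The D cyclin sum relative to that of the 7 inhibitors was 0.702 in +N and 0.813 in +ND, and 1.38 in +NF and 1.11 in +NFD, above 1 in both libraries with FGF10 and in neither without it. These are ratios of mRNA and not of protein complexes.

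**Figure D3:**
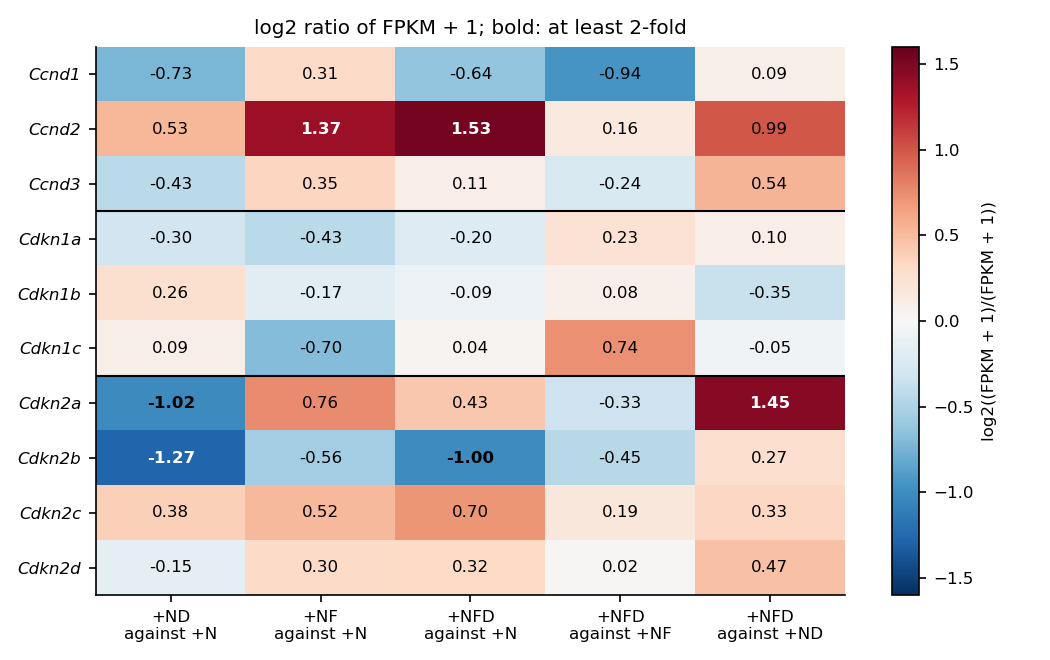
log2((FPKM + 1)/(FPKM + 1)) of the 10 genes in 5 comparisons of 2 libraries each, with D cyclins, Cip/Kip and INK4 genes separated by lines and values at or past 2-fold in bold. The 6 bold values belong to Ccnd2, Cdkn2a and Cdkn2b.

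Comparing the media across the whole table placed these values against their background. In +ND against +N, none of the 10 genes (0 of 10) was called higher at the 2-fold limit and 2 were at least 2-fold lower, Cdkn2a and Cdkn2b, where 5.88% of 13173 genes were called higher and 5.29% lower. The median log2 ratio of the 10 was -0.22, against 0.10 over all genes. Of the 10, 4 were higher and 6 lower, where 7673 of 13173 genes were higher and 5500 lower. Of the genes called, 52.6% were higher, and 42.2% after centring the ratios on their median, which moves every log2 ratio of this comparison by -0.10.

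In +NF against +N, 1 of the 10 was at least 2-fold higher, Ccnd2, and 0 were 2-fold lower, where 2.76% of 13090 genes were called higher and 2.44% lower. The median of the 10 was 0.30, against 0.12 over all genes. All 3 D cyclins were higher and all 3 Cip/Kip genes lower, a split with log2 ratios of 0.31 to 1.37 and of -0.70 to -0.17. Over all genes, 8595 of 13090 were higher and 4495 lower. After centring, 0.19 to 1.25 and -0.81 to -0.29 remained, with the same signs. Of all genes called, 53.1% were higher, and 37.6% after centring.

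In +NFD against +N, 1 of the 10 was at least 2-fold higher, Ccnd2, and 1 was 2-fold lower, Cdkn2b, where 5.85% of 13358 genes were called higher and 4.03% lower. The median of the 10 was 0.07, against 0.18 over all genes, and 59.2% of calls were higher, or 43.1% after centring. In +NFD against +NF, 0 of the 10 were called in either direction, where 3.72% of 13349 genes were called higher and 2.69% lower. The values nearest the limit were those of Ccnd1 at -0.94 and Cdkn1c at 0.74, and the median of the 10 was 0.05, as over all genes. In +NFD against +ND, 1 of the 10 was at least 2-fold higher, Cdkn2a, and 0 were lower, where 3.39% of 13293 genes were called higher and 3.11% lower. The median of the 10 was 0.30, against 0.09 over all genes, and 52.1% of calls were higher, or 40.5% after centring.

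**Figure D4:**
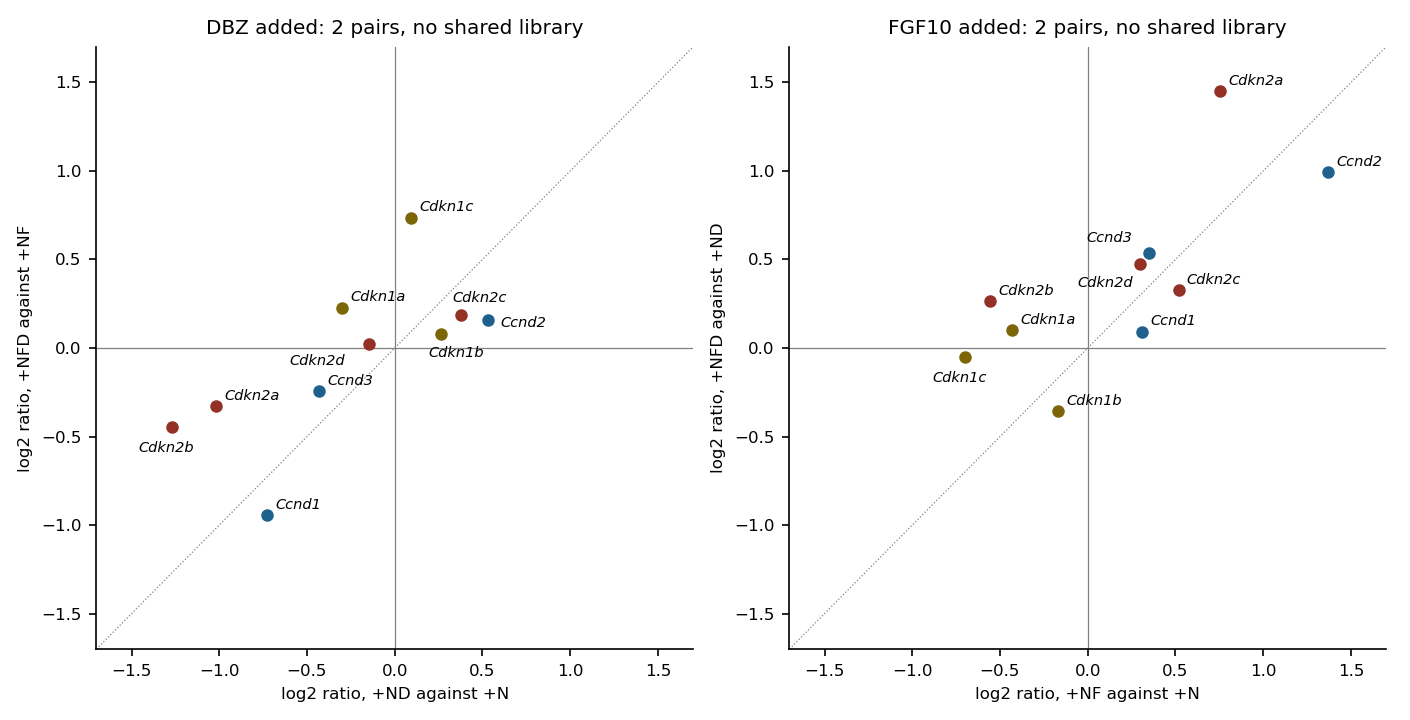
For each of the 10 genes, the log2 ratio of adding DBZ (left) or FGF10 (right) in the absence (x axis) and in the presence (y axis) of the other factor. Each panel sets side by side 2 pairs of libraries that have none in common. Colours mark D cyclins (blue), Cip/Kip (olive) and INK4 genes (red), and the dotted line marks equal ratios. Ccnd1 lies low on both axes for DBZ, and Ccnd2 and Cdkn2a lie high on both for FGF10.

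The 4 media form a 2 by 2 design, in which each factor was added in 2 pairs of libraries with none in common. For DBZ, 8 of the 10 genes had the same sign in both pairs. Ccnd1, Ccnd3, Cdkn2a and Cdkn2b were lower with DBZ in both, and Ccnd2, Cdkn1b, Cdkn1c and Cdkn2c were higher in both. For FGF10, 8 of the 10 again had the same sign in both pairs. All 3 D cyclins, Cdkn2a, Cdkn2c and Cdkn2d were higher with FGF10, and Cdkn1b and Cdkn1c were lower. After centring, 2 of these ratios did not keep their sign, those of Cdkn1c for DBZ without FGF10 (0.09 to -0.01) and of Ccnd1 for FGF10 with DBZ (0.09 to -0.0014). For DBZ, counting intervals included 0 for Cdkn1c without FGF10 (-0.16 to 0.38) and Cdkn1b with it (-0.0033 to 0.17). For FGF10, that of Cdkn1c with DBZ did so (-0.33 to 0.20). The share of all genes with the same sign in both pairs is not given here, so these counts have no background. For Ccnd1 both DBZ ratios were larger in size than both FGF10 ratios, and for Ccnd2 both FGF10 ratios were larger than both DBZ ratios.

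**Figure D5:**
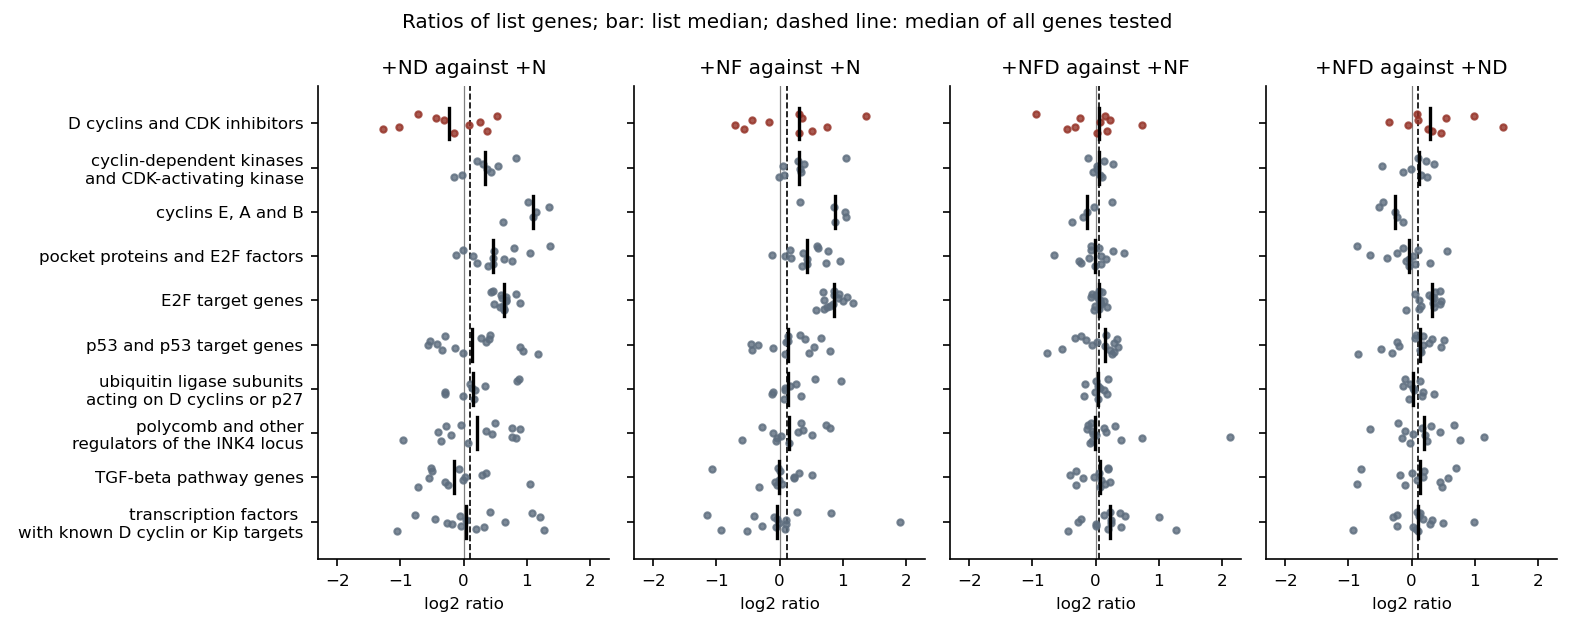
log2 ratios of the 10 genes (red) and of 9 lists of related genes (grey) in 4 comparisons, 1 point a gene, with list medians as solid bars and the median of all genes tested as a dashed line. The 14 E2F target genes lie to the right of 0 in +ND and in +NF against +N, with medians of 0.64 and 0.85, while the 10 genes lie on both sides.

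The partners and targets of the 10 genes were taken from lists of related genes. Cdk4 was at 182 FPKM in +N and 226 in +ND, and 239 in +NF and 290 in +NFD. Cdk6, the other kinase that D cyclins bind, was lower, at 7.04 to 10.8 FPKM. Of the 8 genes of kinases and their activating or folding partners, only Cdk1, the mitotic kinase, was called at 2-fold, at 70.1 FPKM in +N and 146 in +NF (log2 ratio 1.05). Of 6 cyclins E, A and B, 5 passed the filter and all 5 were higher than in +N in the other 3 media. Over all genes, 7673 of 13173 were higher in +ND, 8595 of 13090 in +NF and 9225 of 13358 in +NFD. Past the 2-fold limit in +ND were 4 of the 5 cyclins. They were the G1/S cyclins Ccne1 (8.76 to 18.8 FPKM) and Ccne2 (3.23 to 9.78), Ccna2 (20.2 to 46.2) and the mitotic cyclin Ccnb1 (21.7 to 47.5). In +NF the 2 called were Ccna2 at 42.5 FPKM and Ccnb1 at 46.2, and in +NFD there were 0. The +ND library, with these higher cyclins E and A, had the lowest sums of D cyclins (305 FPKM) and of INK4 inhibitors (84). In +NF, Ccna2 was also higher than in +N, and both sums were the highest of the 4 media (575 and 156 FPKM). A link between these levels was not tested.

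Of 13 pocket protein and E2F genes, Rb1 (7.54 FPKM in +N and 21 in +ND) and E2f2 (1.23 and 3.65) passed the 2-fold limit in +ND, both higher, and E2f1 (6.9 and 15.3) in +NFD. The most abundant of this list was Tfdp1, the E2F partner, at 53.9 FPKM in +N and 73.1 to 77.2 in the other media. Of 14 E2F target genes all 14 were higher than in +N in each of the other media. Their medians were 0.64 in +ND, 0.85 in +NF and 0.90 in +NFD, against 0.10, 0.12 and 0.18 over all genes. At least 2-fold were 0 of the 14 in +ND, 3 in +NF (Mcm6, Cdc6 and Rrm2) and 2 in +NFD (Cdc6 and Rrm2). Rrm2, a subunit of ribonucleotide reductase, was at 27 FPKM in +N and 51.1 in +ND, and 62 in +NF and 64.8 in +NFD, Mcm6, of the replicative helicase, at 23, 37.1, 49.3 and 46.6, and Cdc6, a licensing factor, at 2.67, 4.85, 6.36 and 7.04. Tk1, thymidine kinase, had the highest mean of the list over the 4 media, at 82.4 to 158 FPKM. Cdt1 and the ligase subunit gene Fbxo31 were not analysed here.

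Of 14 polycomb and other regulators of the INK4 locus, 1 was called at 2-fold on the log2(FPKM + 1) scale without centring, Tbx2, a repressor of Cdkn2a, at 0.6 FPKM in +N and 1.73 in +ND, and 0.386 in +NF and 5.02 in +NFD. It was called in each comparison of +NFD with another medium, where the fibroblast marker sum was also highest and its part was not tested. Ezh2, the polycomb methyltransferase, was at 14.4 FPKM in +N and 25.3 in +ND, and 25.8 in +NF and 28.4 in +NFD, chosen after its values were seen. Id1, the most abundant of the list, was at 296 FPKM in +N and 152 in +ND, and 197 in +NF and 260 in +NFD, and like Cdkn2b it was highest in +N and lowest in +ND (log2 ratio -0.96, past 2-fold with upper-quartile scaling or centring). Among 12 TGF-β pathway genes, the ligand gene Tgfb2 was 2-fold lower in +NF than in +N (3.57 and 1.19 FPKM). Tgfb1, the most abundant of the list, was at 76 FPKM in +N and 52.7 in +ND, and 74.9 in +NF and 86.2 in +NFD.

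Of 16 transcription factor genes that act on D cyclin or Kip genes, those called higher in +ND against +N were Mycn (1.21 and 3.68 FPKM), Fosl1 (8.17 and 20.2) and Klf4 (27.6 and 68.2), and Hes1, a Notch target, was called lower (157 and 74.6). Tcf7, a partner of β-catenin and itself a Wnt target, was at 3.89 FPKM in +N and 6.66 in +ND, and 17.3 in +NF and 14.1 in +NFD, 2-fold higher in both libraries with FGF10 than in +N, as Ccnd2 was. Jun, an AP-1 factor that acts on Ccnd1, was highest in +N at 46 FPKM and lay between 20.2 and 26.5 in the other media, an order unlike that of Ccnd1. Klf4, known to activate Cdkn1a, was at 14 FPKM in +NF and 35.3 in +NFD, lowest in +NF as Cdkn1a was, but highest in +ND. Ctnnb1, which encodes β-catenin and was the most abundant of the list, was at 336 FPKM in +N and 245 in +ND, and 326 in +NF and 279 in +NFD, lower in both libraries with DBZ, as Ccnd1 was. Fosl1 and Klf4 were also called higher in +NFD against +NF, Fosl1 at 7.59 and 16.3 FPKM, and Mycn in +NFD against +N at 4.11 FPKM. These likenesses rest on 4 libraries.

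Centring the ratios on their median ended some of these calls and added others. In +ND against +N, 6 of the list genes called higher were called with and without centring (Ccne2, Ccna2, Rb1, Trp53inp1, Fosl1 and Klf4), while Ccne1, Ccnb1, E2f2 and Mycn were called only without it. In +NF against +N, Rrm2 and Tcf7 were called either way, and Cdk1, Ccna2, Ccnb1, Mcm6 and Cdc6 only without centring. In +NFD against +N, Rrm2, Tbx2, Mycn and Tcf7 were called either way, and E2f1, Cdc6 and Aen only without it. In +NFD against +NF, Fosl1 was called only without centring. The calls of lower list genes, Hes1 in +ND, Tgfb2 in +NF and Jun in +NF and +NFD, each against +N, held either way. Centring also added calls of lower genes: Id1 in +ND against +N, Klf4 in +NF against +N and in +NFD against +ND, and Tgfb2 and Hes1 in +NFD against +N.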

How the data were processed

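Bulk RNA-seq libraries of DEOs from 4 media, 1 library each, were used. Per the labels and methods, the authors trimmed reads with Trim Galore 0.6.5, checked them with FastQC 0.11.9, aligned them to GRCm38 with TopHat2 2.1.1 and deposited FPKM values from Cufflinks. The annotation release, the strand setting and the read totals are not given in the sources used here. Entries with the same symbol were summed. Ratios are log2((FPKM + 1)/(FPKM + 1)) over genes with 1 FPKM or more in the higher library, called at 2-fold, which understates low genes. With 1 library per medium, no test was made.

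Fragments behind a value were estimated as FPKM times the length of the gene's longest protein-coding transcript (GENCODE M21), divided by the value of 1 fragment. That value was read from the lowest values of 8409 genes annotated with 1 transcript, of at least 1000 nt, and was 0.0364 (+N), 0.0453 (+ND), 0.0348 (+NF) and 0.0344 FPKM × kb (+NFD). The 95% Poisson intervals are exact for counting error only and approximate in the length used, since several genes have more than 1 transcript.

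The genes and the 9 related lists were chosen with earlier results of these data known. Named genes were all 10, every list gene called at 2-fold and the gene of each list with the highest mean FPKM. Cdk6, Mdm2, Cks1b, Skp2, Ezh2 and the genes that overlap or neighbour the 10 were named outside this rule, after their values were seen. Promoters came from RefSeq (GRCm38.p6). A result of 1 list gene is not reported here. The comparison of protein sequences that had been planned was not run. The calling step was tested on simulated data. Computations used Python 3.11.15 (scipy 1.17.1, pandas 2.3.3, numpy 2.4.6) and figures matplotlib 3.10.9.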

Additional observations from a re-analysis of the deposited data

Results flagged for a closer look

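For 3 of the 10 genes, at least 1 factor had opposite signs in its 2 pairs of libraries. With 1 library per medium the difference between the pairs was not tested. Cdkn1a had a log2 ratio for DBZ of -0.30 without FGF10 (+ND against +N) and 0.23 with FGF10 (+NFD against +NF). Its log2 ratio for FGF10 was -0.43 without DBZ (+NF against +N) and 0.10 with DBZ (+NFD against +ND), so its highest level was that without either factor. Cdkn2d had a DBZ log2 ratio of -0.15 without FGF10 and 0.024 with it, and the counting interval of the second ratio, -0.07 to 0.12, included 0. Each Cdkn2d ratio also changed sign under at least 1 other scaling, up to 0.0032 for the first and down to -0.027 for the second. Cdkn2b had an FGF10 log2 ratio of -0.56 without DBZ and 0.27 with DBZ. All of these ratios are smaller than 2-fold.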

How the results depend on the processing

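The counts and medians of the 10 genes and the D cyclin shares were recomputed under 8 alternatives: pseudocounts of 0.1 and of none, no filter, a filter at 5 FPKM, upper-quartile scaling, scaling to TPM, centring of the ratios, and for each symbol its highest entry. No paired analysis was possible because every label carries replicate number 1, and no library could be left out with 1 per medium. Of 156 such alternative values, 147 stayed close to the reported value and 9 moved. Many of the 147 could not move. Each of the 10 genes had 1 entry and was above the filter of 1 FPKM in every library, and scaling a library cannot change shares within it. The filter at 5 FPKM left out Cdkn1c in +NF against +N, +NFD against +N and +NFD against +NF. With TPM scaling, 1 of the 10 genes was 2-fold lower in +ND against +N in place of 2, since Cdkn2a was at -0.88, and 0 in place of 1 in +NFD against +N, since Cdkn2b was at -0.87. The median log2 ratio of the 10 was -0.071 with TPM scaling in +ND against +N (reported -0.22). In +NF against +N it was 0.20 with upper-quartile scaling, 0.42 with TPM scaling and 0.19 after centring (reported 0.30). In +NFD against +N it was -0.066, 0.20 and -0.11 in the same order (reported 0.07), so its sign depends on the scaling. Relative to the reported values, TPM scaling moved the median of all genes by 0.15 in +ND, 0.11 in +NF and 0.13 in +NFD, each against +N, by construction, since the summed FPKM differ. Of the 50 log2 ratios of single genes, 7 changed sign under some alternative, 4 of the 6 called stayed called under every one, and 0 others became called.

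Over all genes, the count of 2-fold higher genes went from 774 to 1212, 1222 and 1251 in +ND against +N with a pseudocount of 0.1, none and TPM scaling, from 361 to 712, 720 and 613 in +NF against +N, and from 782 to 1271, 1269 and 1214 in +NFD against +N, where a filter at 5 FPKM gave 488. Lower genes went from 319 to 480 in +NF against +N with a pseudocount of 0.1. In +NFD against +NF the filter at 5 FPKM gave 307 higher genes in place of 497, and in +NFD against +ND 290 in place of 450, where pseudocounts of 0.1 and none gave 818 and 829. The filter at 5 FPKM also cut the genes tested, from 13358 to 10033 in +NFD against +N. In +NFD against +NF it left 10088 of 13349, and in +NFD against +ND 10074 of 13293. How far genes of low FPKM made up the other changes was not tested. Of the counts in related lists, 63 alternative values moved.

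Depth limits Cdkn1c most, with counting intervals of 12.1% to 17% on either side of its values, against 0.81% to 1.43% for Ccnd2. Spread between cultures is unknown for every value.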

Other observations

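Genes next to the 10 were looked at after their values were seen. On chromosome 4, Mtap, which encodes methylthioadenosine phosphorylase and lies 93389 bases from Cdkn2a, was at 16.6 FPKM in +N and 38.7 in +ND, and 27.6 in +NF and 24.8 in +NFD, highest where Cdkn2a and Cdkn2b were lowest. Gm12603, 189856 bases from Cdkn2a, was at 46.6 FPKM in +ND and at 5.39 to 9.7 in the other libraries, a log2 ratio of 2.90 for +ND against +N. On chromosome 7, Kcnq1, a potassium channel gene of the imprinted cluster that holds Cdkn1c and 31296 bases from it, was at 29.3 FPKM in +N and 46.3 in +NF but 0.862 in +ND and 5.48 in +NFD. Its log2 ratio for DBZ was -4.03 without FGF10 and -2.87 with it, where Cdkn1c had 0.09 and 0.74. The imprinted genes Slc22a18 and Phlda2 of the same cluster lay between 15.6 and 26.4 FPKM and between 9.65 and 16.4. On chromosome 6, Fgf23, a ligand gene 43753 bases from Ccnd2, was at 0.246 FPKM in +N and 0.645 in +NF, and 4.47 in +ND and 2.28 in +NFD, and Tigar, 15604 bases from Ccnd2, lay between 4.88 and 8.33 FPKM. Neither had the order of Ccnd2 over media.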
